A study of Mus musculus with 8 samples.

Results

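Bone marrow RNA of mice with transplanted B-cell leukaemia was compared between leukaemia that lacked Aid and leukaemia that kept it, both with lipopolysaccharide (LPS), which the design text words as a treatment of the cells. These were 6 of the 8 libraries of the study, and 12013 of its 18020 gene rows were tested, those with a mean of at least 0.5 FPKM (fragments mapped per unit of transcript length and of sequencing depth) over the 6 libraries. The group KO_LPS (n = 3) held BCR-ABL1+ B-ALL cells of genotype Aid KO with the treatment LPS, and WT_LPS (n = 3) held BCR-ABL1+ B-ALL cells of genotype Aid WT with the treatment LPS. One more group, WT_PBS (n = 2), held BCR-ABL1+ B-ALL cells of genotype Aid WT with the treatment PBS, a buffered saline that serves as vehicle. It entered the fit only to add to the estimate of the spread, and its values are given for reference.

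All 8 libraries share BCR-ABL1, a kinase oncogene formed by the joining of BCR to ABL1 and found in a form of acute lymphoblastic leukaemia, and all are labelled bone marrow and B lymphocyte. No sorting step is given, and markers of neutrophils, red cells and macrophages were detected beside those of the B lineage. The labels give no strain, age or sex of the mice, no dose, route or time of LPS, and do not say whether each genotype was 1 transformed culture or several. P-values therefore measure how far these libraries scatter, possibly for technical reasons alone, and a difference between the genotypes cannot be told apart from any other difference between the transplanted cell populations. In such bulk samples, fewer cells of a type and less RNA per cell cannot be told apart either.

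Aid is the deaminase that turns cytosine into uracil in antibody genes of activated B cells, where it starts class switching and somatic hypermutation, and it can also mutate other genes. LPS is a bacterial cell wall component sensed by the receptor TLR4, which signals through NF-kB and can induce type I interferon. Interferon-gamma, made by T and NK cells, signals through its receptor and JAK kinases to GAS elements in promoters. Type I interferon acts mainly through ISRE elements, which IRF proteins also bind. Immunity-related GTPases (IRG) and guanylate-binding proteins (GBP) are large families of interferon-induced proteins of cell-autonomous defence in mice.

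The libraries also differed in markers of marrow cell types. Totals were 631785 to 700238 FPKM in KO_LPS and 606576 to 689299 FPKM in WT_LPS, and depth in reads was unknown. Principal component 1, with 60.6% of the variance, had scores of 34.5, 50.01 and -21.1 in KO_LPS and 17.3, -30.1 and -14.3 in WT_LPS, so the groups overlapped on it. Summed FPKM of 10 B-lineage markers was 5405 to 7890 in KO_LPS and 5402 to 6626 in WT_LPS, and none of the 10 was at 0 in all libraries. The sum of 15 neutrophil markers was 6561, 5619 and 14344 FPKM in KO_LPS, against 28323, 9044 and 8724 FPKM in WT_LPS, where replicate 1 stood apart. The 4 globin genes summed to 1201, 968 and 78.0 FPKM in KO_LPS and to 323, 207 and 95.0 FPKM in WT_LPS. The 3 C1q genes, complement subunits made by tissue macrophages, summed to 229, 201 and 64.9 FPKM in KO_LPS and to 61.1, 64.2 and 53.1 FPKM in WT_LPS. KO_LPS replicates 1 and 2 were thus high in globins and C1q, and KO_LPS replicate 3 was not. The whole list of 15 monocyte and macrophage markers, which holds the C1q genes, did not follow that pattern. It summed to 672, 623 and 813 FPKM in KO_LPS and to 842, 764 and 591 FPKM in WT_LPS.

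**Figure D1:**
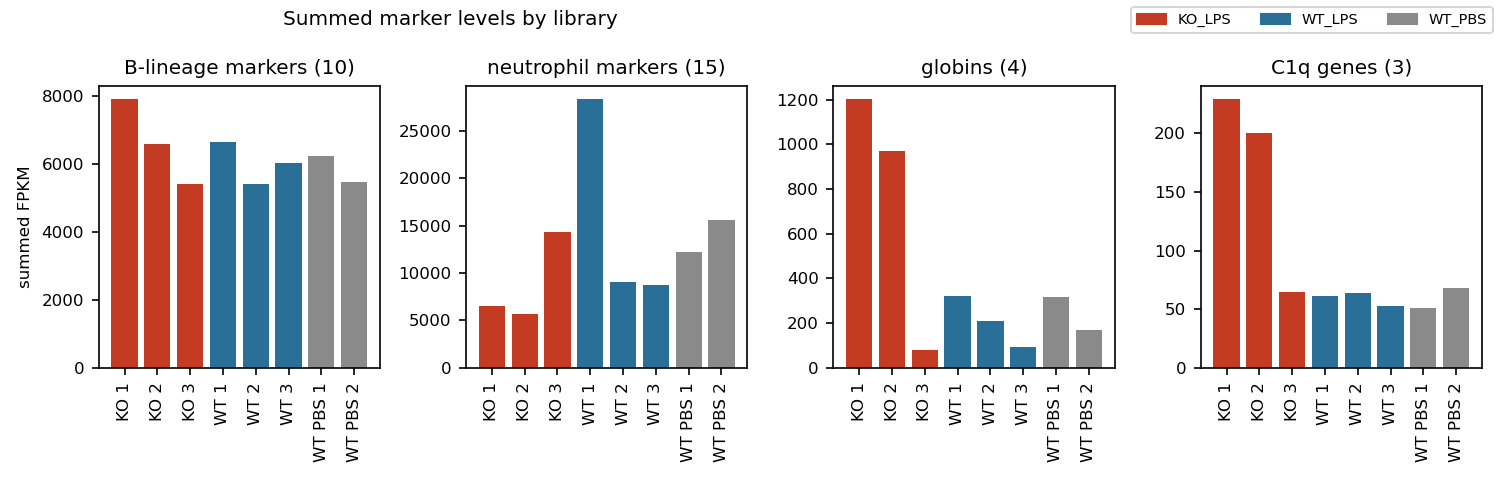
Summed FPKM of marker genes in each library (bars, 1 per library; linear axis from 0), for 10 B-lineage markers, 15 neutrophil markers, 4 globins and 3 C1q genes, the last 2 sets chosen after their values were seen. KO_LPS replicates 1 and 2 stand above the other libraries in globins and C1q genes, and WT_LPS replicate 1 (28323 FPKM) in neutrophil markers.

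Between KO_LPS and WT_LPS, 10 genes passed, 7 higher and 3 lower in KO_LPS. Of the 7, 5 are interferon-induced GTPase genes (Iigp1, Gbp2, Tgtp1, Tgtp2 and Igtp), 1 is the interferon-gamma-induced chemokine gene Cxcl9, and 1 is the lectin gene Clec2e. The lower genes were Tceal9, Fbxw8 and an unnamed locus. These 10 are 0.0832% of the 12013 genes tested (limma on log2(FPKM + 1), Benjamini-Hochberg adjusted p under 0.05), 0.0583% in the higher and 0.025% in the lower direction. With median-ratio scaling the split was 7 higher and 5 lower. The count was 0 in the fit of the 6 libraries alone, where 579 genes had an unadjusted p under 0.05 against 681 (5.67%) here, and each of the 8 libraries moved it when left out. It was 0, 1 and 162 without KO_LPS replicates 1, 2 and 3, then 3, 0 and 1 without WT_LPS replicates 1, 2 and 3, and 0 without either WT_PBS replicate. The 10 genes kept their direction in each of these fits.

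**Figure D2:**
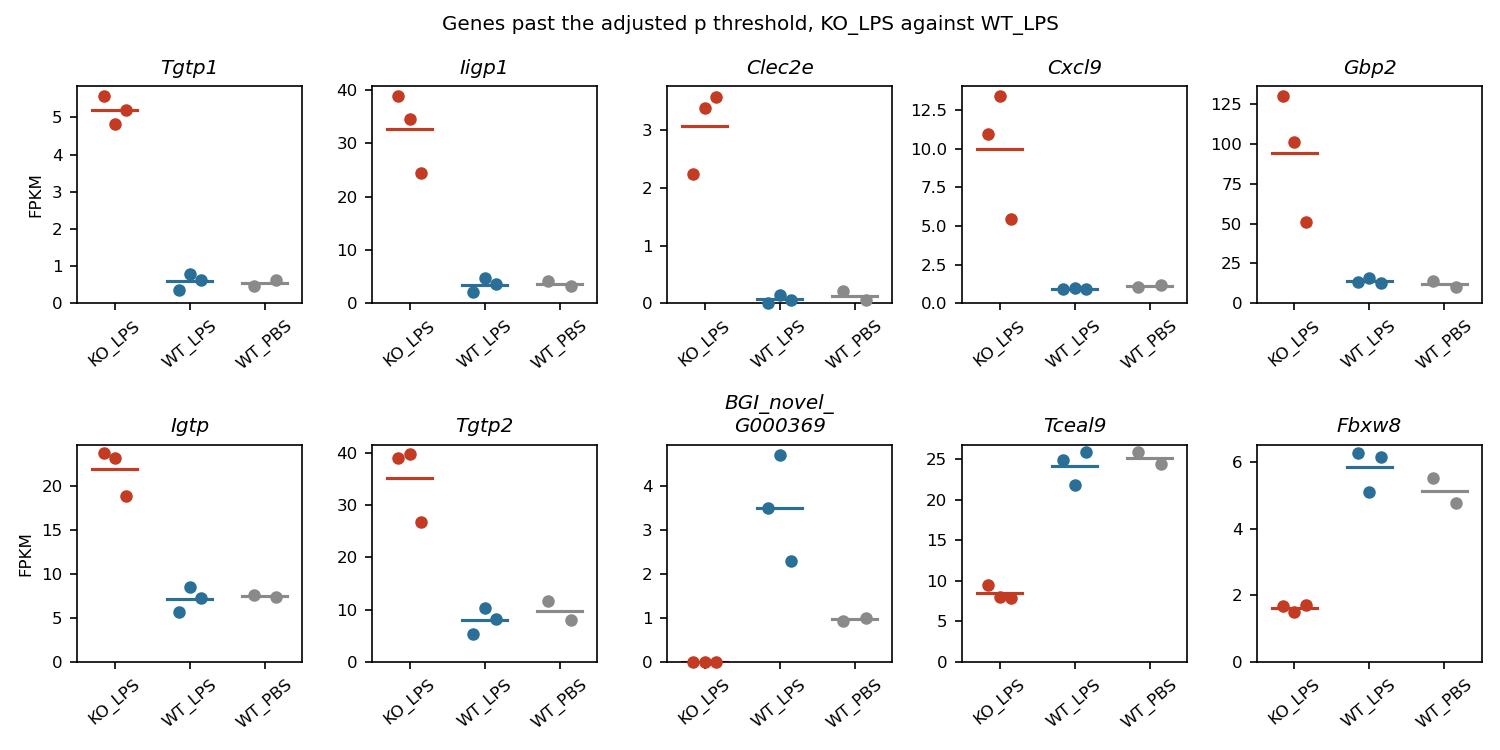
FPKM of the 10 genes that passed, by group (points, 1 library each; horizontal lines, group means; linear axes from 0). In each of the 10 panels the KO_LPS points lie wholly above or wholly below both groups with intact Aid.

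GTPase genes of the IRG and GBP families were higher in KO_LPS. Of 14 tested members, 5 passed, all higher in KO_LPS, where 0.0583% of all genes tested passed as higher. All 14 differences were above 0, and 12 of 14 did not overlap between the groups. Across all genes tested, 4.84% were higher in KO_LPS without overlap and 9.12% did not overlap in either direction. The median log2(FPKM + 1) difference was 1.59 over the 14 members and -0.06 over all genes, and it stayed between 1.51 and 1.74 with 1 library left out. By library, the median of the 14 stood 1.74, 1.74 and 1.32 above the WT_LPS mean in KO_LPS, and at -0.26, 0.28 and 0.04 in WT_LPS, on the same scale. Of the 18 genes listed, Gbp2b, Gbp8 and Gbp10 fell below the filter, with every value at or under 0.73 FPKM, and Gbp11 was not analysed here.

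Among IRG genes, Iigp1, an effector GTPase that attacks the vacuole of intracellular parasites in mouse cells, was at 38.8, 34.6 and 24.4 FPKM in KO_LPS, against 2.13, 4.73 and 3.59 FPKM in WT_LPS. The lowest KO_LPS library was several times the highest WT_LPS library (log2 difference 2.92 ± 0.27, SE; limma, adjusted p = 0.0143). Igtp, a regulatory member also called Irgm3, was at 23.8, 23.2 and 18.9 FPKM in KO_LPS against 5.63, 8.53 and 7.32 FPKM in WT_LPS (1.5 ± 0.19, adjusted p = 0.0421). Tgtp2 was at 39.02, 39.7 and 26.7 FPKM in KO_LPS against 5.30, 10.4 and 8.18 FPKM in WT_LPS (2.03 ± 0.26, adjusted p = 0.0469). Its near-identical neighbour Tgtp1, with which it could share reads, was lower in level at 5.58, 4.82 and 5.2 FPKM in KO_LPS and 0.37, 0.79 and 0.64 FPKM in WT_LPS (1.96 ± 0.18, adjusted p = 0.0143). The 2 may therefore not be independent observations. Irgm1 (46.2, 61.8 and 38.5 FPKM in KO_LPS; 14.4, 24.8 and 20.8 FPKM in WT_LPS) and Ifi47 (39.8, 40.6 and 45.9 FPKM in KO_LPS; 14.2, 35 and 29.3 FPKM in WT_LPS) were also apart without passing, and Irgm2 overlapped.

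Among GBP genes, the size of the difference varied widely. Gbp2 was at 130.2, 101 and 51.0 FPKM in KO_LPS, against 13.6, 15.8 and 12.9 FPKM in WT_LPS (2.56 ± 0.31, SE; limma, adjusted p = 0.0387). Gbp6 had 18.6, 19.7 and 5.13 FPKM in KO_LPS and 0.72, 1.26 and 0.56 FPKM in WT_LPS, a difference as large as that of Gbp2 that did not pass (2.89 ± 0.44, adjusted p = 0.0791). Gbp4 was at 10.6, 10.9 and 3.63 FPKM in KO_LPS against 0.78, 0.79 and 0.79 FPKM in WT_LPS (2.27 ± 0.35, adjusted p = 0.0791), and Gbp9 at 10.3, 10.5 and 6.48 FPKM in KO_LPS against 2.21, 2.5 and 1.61 FPKM in WT_LPS (1.68 ± 0.23, adjusted p = 0.0511). In Gbp2, Gbp4, Gbp6 and Gbp9 the lowest of the KO_LPS values was that of replicate 3. The abundant Gbp7 differed little, at 97.4, 92.9 and 105 FPKM in KO_LPS and 62.5, 86.7 and 72.7 FPKM in WT_LPS (0.42). Gbp5 (0.62) and Gbp3 (0.57) were close to it in log2 difference. WT_PBS values of Gbp7, 125 and 88.5 FPKM, spanned the KO_LPS values, whereas for 11 of the 14 genes each KO_LPS library lay above all 5 libraries with intact Aid, a pattern held by 2.26% of all genes tested.

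**Figure D3:**
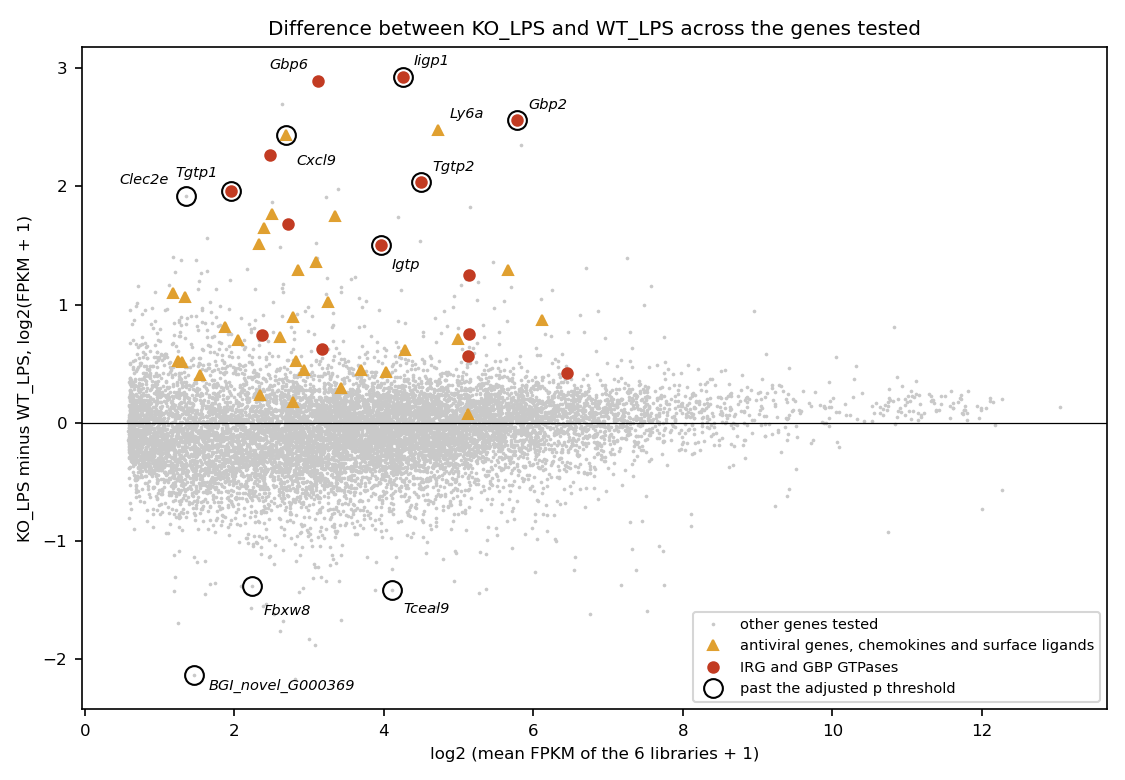
Difference between KO_LPS and WT_LPS in log2(FPKM + 1) (vertical axis) against log2 of the mean FPKM of the 6 libraries plus 1 (horizontal axis) for 12013 genes. Circles mark the 14 IRG and GBP genes, triangles antiviral genes, chemokines and surface ligands, and rings the 10 genes that passed; the circles and triangles all lie above 0.

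Promoters of the GTPase genes that passed are shown because these genes were higher together. Each window runs from 250 bases before to 50 bases after the transcription start (RefSeq, GRCm38.p6), and a window was at hand for 7 of the 10 genes. Both strands were searched for the ISRE, as GAAA, any 2 bases and GAAA, and for GAS, as TTCNNNGAA. Capitals mark the matches, and neighbouring ISRE matches can overlap.
Tgtp1 (chromosome 11, 48992197 to 48992496, minus strand): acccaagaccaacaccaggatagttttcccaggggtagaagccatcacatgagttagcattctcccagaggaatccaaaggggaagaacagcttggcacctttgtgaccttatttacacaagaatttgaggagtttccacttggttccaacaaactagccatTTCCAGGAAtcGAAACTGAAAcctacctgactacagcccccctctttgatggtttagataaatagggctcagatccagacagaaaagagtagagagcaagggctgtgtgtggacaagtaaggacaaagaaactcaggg
Tgtp2 (chromosome 11, 49064163 to 49064462, minus strand): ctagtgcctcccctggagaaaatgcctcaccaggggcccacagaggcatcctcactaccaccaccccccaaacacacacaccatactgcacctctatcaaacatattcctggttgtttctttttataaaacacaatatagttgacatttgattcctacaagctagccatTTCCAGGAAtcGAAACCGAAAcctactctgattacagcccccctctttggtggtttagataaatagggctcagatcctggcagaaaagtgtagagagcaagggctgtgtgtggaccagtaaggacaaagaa
Igtp (chromosome 11, 58199306 to 58199605, plus strand): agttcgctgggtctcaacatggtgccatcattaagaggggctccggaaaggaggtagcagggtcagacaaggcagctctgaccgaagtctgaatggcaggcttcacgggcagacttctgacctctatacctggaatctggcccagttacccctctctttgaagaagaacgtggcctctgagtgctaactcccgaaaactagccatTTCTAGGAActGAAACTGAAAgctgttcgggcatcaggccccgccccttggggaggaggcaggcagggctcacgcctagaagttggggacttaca
Gbp2 (chromosome 3, 142620413 to 142620712, plus strand): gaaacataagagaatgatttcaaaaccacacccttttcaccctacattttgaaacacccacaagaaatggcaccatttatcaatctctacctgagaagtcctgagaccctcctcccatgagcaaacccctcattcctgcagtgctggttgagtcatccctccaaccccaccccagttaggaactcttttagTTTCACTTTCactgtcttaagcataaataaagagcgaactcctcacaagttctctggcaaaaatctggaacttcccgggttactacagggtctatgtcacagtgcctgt
In Tgtp1, Tgtp2 and Igtp a GAS match is followed after 2 bases by an ISRE match. Irgm2 holds the same arrangement, which occurs on either strand in 5 of 32851 promoter windows (0.0152%), which belong to these 4 genes and Gm12185. The spacing of 2 bases was set from the windows printed above, so its rarity is only a description. Tgtp1, Tgtp2, Igtp and Irgm2 are all IRG genes, and their relatedness was not taken into account. Of the 10 tested IRG and GBP genes with a window, 9 had an ISRE match and 6 a GAS match, against 3.44% and 8.3% of all windows. Ifi47 had neither. Irgm2, which shares the arrangement, did not pass, at 3, 5.18 and 8.25 FPKM in KO_LPS and 1.19, 4.25 and 3.26 FPKM in WT_LPS. The windows of Cxcl9, Clec2e and Tceal9 held no match to either motif, which says only that these letters are not in those windows.

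Among interferon ligands, receptors and transducers no gene passed, where 0.0832% of all genes tested passed. Ifng, encoding interferon-gamma, was at 0.18, 0.73 and 0.87 FPKM in KO_LPS and at 0.21, 0.33 and 0.06 FPKM in WT_LPS, overlapping and below the filter. The receptor gene Ifngr1 was at 25.9, 26.9 and 34.3 FPKM in KO_LPS and 36.3, 39.3 and 30.7 FPKM in WT_LPS, and Ifnar1 at 12.6 to 14.4 FPKM in KO_LPS and 12.8 to 13.9 FPKM in WT_LPS. Irf1, an interferon-induced transcription factor, was apart at 53.1, 92.6 and 49.4 FPKM in KO_LPS and 33.3, 31.9 and 25.6 FPKM in WT_LPS without passing (1.03 ± 0.23; limma, adjusted p = 0.333). Batf2, an interferon-induced AP-1 family factor, came closest at 4.24, 4.36 and 2.43 FPKM in KO_LPS and 0.62, 0.60 and 0.45 FPKM in WT_LPS (1.56 ± 0.21, adjusted p = 0.0511). The feedback inhibitor Socs1 was at 6.76, 13.3 and 5.57 FPKM in KO_LPS and at 3.31, 4.39 and 3.61 FPKM in WT_LPS. Of the 17 tested ligands, receptors and transducers, 0 passed (7 with an unadjusted p under 0.05 in limma), 6 were higher in KO_LPS without overlap, and the median difference was 0.36. Of all genes tested, 2.56% were higher at that unadjusted p and 4.84% were higher without overlap. The median was 0.23 without KO_LPS replicate 1 and 0.21 without WT_LPS replicate 1.

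Interferon-induced chemokines and surface proteins had differences above 0 in all 7 tested members, of which 1 passed and 6 did not overlap, where 0.0583% of all genes passed as higher and 4.84% were higher without overlap. Cxcl9, a chemokine that attracts activated T cells and a classical interferon-gamma target, was at 11.0, 13.4 and 5.47 FPKM in KO_LPS, against 0.90, 0.96 and 0.91 FPKM in WT_LPS (2.43 ± 0.29, SE; limma, adjusted p = 0.0368). Cxcl10, which binds the same receptor, was at 6.99, 7.37 and 6.37 FPKM in KO_LPS and 2.77, 0.89 and 1.24 FPKM in WT_LPS (1.65 ± 0.27, adjusted p = 0.109). Ly6a, encoding the interferon-inducible surface protein Sca-1, was at 70.4, 48.4 and 16.1 FPKM in KO_LPS against 5.31, 6.24 and 6.65 FPKM in WT_LPS (2.48 ± 0.45, adjusted p = 0.162), with KO_LPS replicate 3 well below the other KO_LPS libraries. Il18bp, a secreted inhibitor of interleukin-18, was at 10.5, 6.19 and 3.07 FPKM in KO_LPS and 1.95, 1.10 and 1.33 FPKM in WT_LPS. Cd274, encoding the checkpoint ligand PD-L1, overlapped because KO_LPS replicate 3 (4.32 FPKM) lay below WT_LPS replicate 1 (4.5 FPKM). The median difference of the 7 was 1.51, and 1.15 to 1.72 with 1 library left out.

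Antiviral genes of the type I interferon response were higher as well, by smaller amounts. All 23 tested differences were above 0 with a median of 0.61, and 18 of 23 did not overlap. Of all genes tested, 4.84% were higher without overlap. Of the 23, 0 passed and 15 had an unadjusted p under 0.05 in limma, where 2.56% of all genes tested did so in this direction. Zbp1, a sensor of unusual nucleic acids, was at 19.9, 15.9 and 8.43 FPKM in KO_LPS and 2.20, 4.95 and 3.58 FPKM in WT_LPS (1.75 ± 0.33, SE; adjusted p = 0.189). Isg15, a ubiquitin-like modifier, was at 8.72, 9.67 and 4.69 FPKM in KO_LPS and 1.23, 2.91 and 0.72 FPKM in WT_LPS (1.77 ± 0.36, adjusted p = 0.267). Rtp4, an interferon-induced receptor transporter gene, was at 13.7, 13.6 and 6.77 FPKM in KO_LPS, 2.35, 5.52 and 3.48 FPKM in WT_LPS and 8.11 and 5.36 FPKM in WT_PBS, so that 1 WT_PBS library lay above the lowest KO_LPS library. Only 6 of these 23 genes lay above all 5 libraries with intact Aid in every KO_LPS library, compared with 11 of the 14 GTPases, a difference between lists that was not tested. The median of the 23 stood 0.73, 0.68 and 0.47 above the WT_LPS mean in KO_LPS, and 0.51 and 0.43 above it in WT_PBS.

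Genes of MHC class I presentation had differences above 0 in all 17 tested members with a median of 0.58, of which 0 passed (11 with an unadjusted p under 0.05 in limma) and 6 did not overlap. Of all genes tested, 2.56% were higher at that unadjusted p and 4.84% were higher without overlap. Psmb9, an immunoproteasome subunit, was at 161, 123 and 127 FPKM in KO_LPS and 88.0, 84.5 and 95.4 FPKM in WT_LPS (0.61 ± 0.13, SE; adjusted p = 0.281). Psme2, a subunit of the proteasome activator PA28, was at 302, 245 and 217 FPKM in KO_LPS and 182, 168 and 179 FPKM in WT_LPS. The class I chain H2-K1 overlapped, at 851, 689 and 466 FPKM in KO_LPS and 438, 468 and 395 FPKM in WT_LPS, as did the peptide transporter Tap1 at 206, 173 and 88.0 FPKM in KO_LPS against 88.5, 64.4 and 75.1 FPKM in WT_LPS. The median of the list was 0.95, 0.60 and 0.15 above the WT_LPS mean in the 3 KO_LPS libraries and -0.07 to 0.06 in WT_LPS, and KO_LPS replicate 3 was the lowest of the KO_LPS libraries.

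The median of the MHC class II genes stood 0.89 and 0.47 above the WT_LPS mean in KO_LPS replicates 1 and 2, and at -0.01 in KO_LPS replicate 3. H2-Aa was at 97.5, 54.7 and 17.7 FPKM in KO_LPS and 19.0, 10.4 and 9.16 FPKM in WT_LPS, and the invariant chain gene Cd74 at 168, 118 and 37.5 FPKM in KO_LPS and 52.9, 43.8 and 30.1 FPKM in WT_LPS, both overlapping. H2-Eb1 was at 48.6, 26.2 and 9.56 FPKM in KO_LPS and 9.37, 5.67 and 4.48 FPKM in WT_LPS, apart by a narrow margin (1.74 ± 0.50, SE; limma, adjusted p = 0.575). Of 11 tested members, 0 passed, and 5 had an unadjusted p under 0.05 in limma, each higher. Of all genes tested, 2.56% were higher at that level. Differences were above 0 in 7 of the 11 members and in 5071 of 12013 of all genes. The median difference of 0.48 was 0.27 without KO_LPS replicate 1. Ciita, the master activator of these genes, was at 0.27 FPKM or less in all 8 libraries. The sum of the 3 C1q genes was 229, 201 and 64.9 FPKM in KO_LPS and 53.1 to 64.2 FPKM in WT_LPS, also high in KO_LPS replicates 1 and 2 and near WT_LPS in replicate 3, and their part in the class II difference was not tested.

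**Figure D4:**
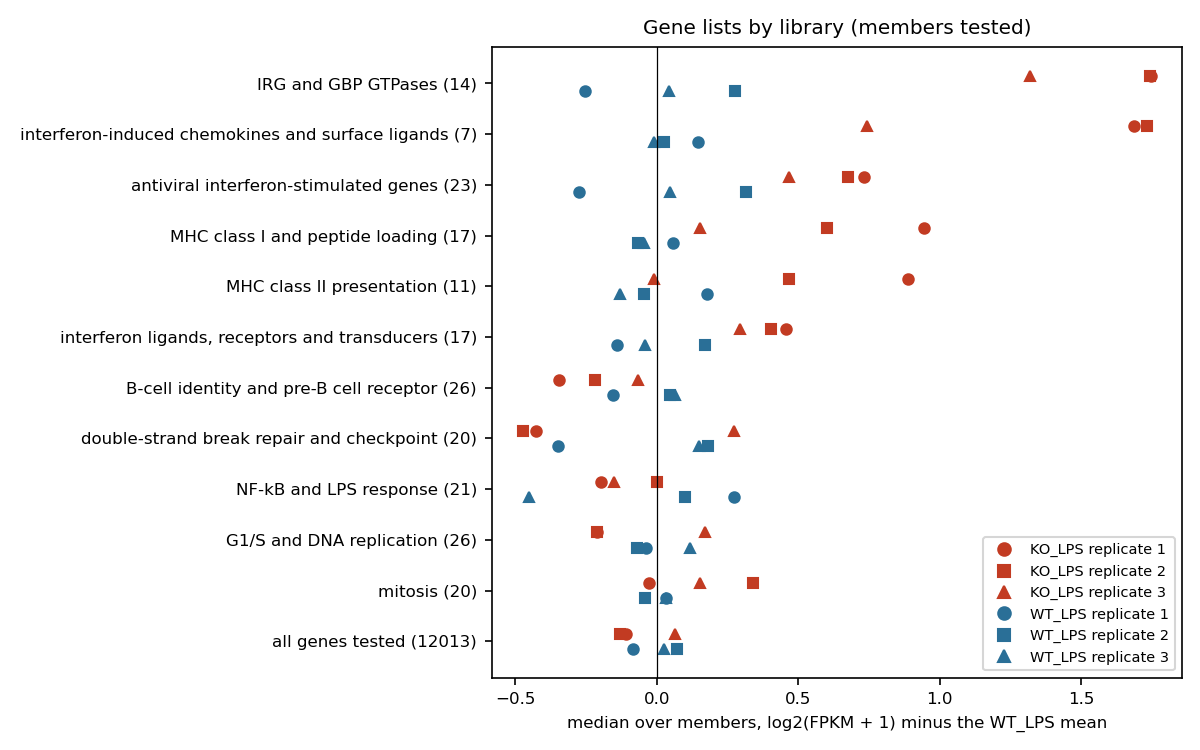
Median over the tested members of each gene list of log2(FPKM + 1) minus the WT_LPS mean (horizontal axis), by library; the number of members is in brackets, colours are groups and symbols replicates. For the GTPases, chemokines and antiviral genes the 3 KO_LPS libraries lie above the 3 WT_LPS libraries; for MHC class II, KO_LPS replicate 3 (-0.01) lies among the WT_LPS libraries.

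Clec2e encodes a C-type lectin-related protein and maps to the NK gene complex. Its level was 2.24, 3.38 and 3.58 FPKM in KO_LPS, against 0, 0.14 and 0.06 FPKM in WT_LPS and 0.21 and 0.05 FPKM in WT_PBS (1.92 ± 0.18, SE; limma, adjusted p = 0.0143). It was the single gene that passed among 10 tested lectin genes of the complex, where 0.0583% of all genes tested passed as higher. Of the 10, 6 had differences below 0, and the median was -0.38. The neighbour of Clec2e, Clec2d, a ligand of the NK receptor family Klrb1, lay the other way. It was at 17.6, 21.4 and 31.9 FPKM in KO_LPS and 27.2, 42.1 and 35.6 FPKM in WT_LPS, overlapping. Klrb1f was also lower, at 0.36, 0.20 and 1.08 FPKM in KO_LPS and 1.69, 1.10 and 1.26 FPKM in WT_LPS without passing, and Clec2i overlapped at 5.35 to 11.8 FPKM in KO_LPS and 6.55 to 9.47 FPKM in WT_LPS. The sum of 11 NK-cell markers overlapped between the groups, at 34.6, 23.1 and 61.8 FPKM in KO_LPS and 31.7, 60.02 and 47.2 FPKM in WT_LPS.

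The 3 genes that fell were Tceal9, Fbxw8 and an unnamed locus. Tceal9, an X-linked gene of the transcription elongation factor A-like family, was at 9.53, 7.97 and 7.88 FPKM in KO_LPS, against 24.9, 21.9 and 25.8 FPKM in WT_LPS and 25.9 and 24.4 FPKM in WT_PBS (fell by 1.41, SE 0.15, on the log2 scale; limma, adjusted p = 0.0150). Its relatives were scarce: of 9 Tceal and Bex genes with a row, 4 were tested, and among them Bex3 was at 6.15, 3.76 and 4.24 FPKM in KO_LPS and 11.7, 6.32 and 7.02 FPKM in WT_LPS without passing. Fbxw8, the F-box protein of the cullin-7 ubiquitin ligase, was at 1.67, 1.49 and 1.71 FPKM in KO_LPS, against 6.28, 5.11 and 6.15 FPKM in WT_LPS and 5.52 and 4.76 FPKM in WT_PBS (fell by 1.38, SE 0.17; adjusted p = 0.0421). Its scaffold Cul7 overlapped, at 7.85, 6.03 and 12.7 FPKM in KO_LPS and 9.61, 14.4 and 12.4 FPKM in WT_LPS, and the RING subunit Rbx1 overlapped as well. The locus BGI_novel_G000369, which has no annotated name, was listed at 0 in the 3 KO_LPS libraries and was at 3.51, 4.71 and 2.30 FPKM in WT_LPS and 0.94 and 1.01 FPKM in WT_PBS (adjusted p = 0.0143).

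The next 12 genes lower in KO_LPS by p were chosen among genes apart from WT_LPS. Their adjusted p ran from 0.0511 to 0.209 (limma). All 12 also lay below both WT_PBS libraries. Of all genes tested, 2.61% lay below all 5 libraries with intact Aid, but the choice of the 12 fixes most of that pattern and nothing is read from it. S100a4, a calcium-binding protein, was at 61.8, 38.0 and 59.3 FPKM in KO_LPS and 154, 185 and 148 FPKM in WT_LPS (-1.62 ± 0.22, SE; limma, adjusted p = 0.0511). Wls, which carries Wnt ligands to the cell surface, was at 1.91, 1.85 and 4.46 FPKM in KO_LPS and 13.0, 12.8 and 10.8 FPKM in WT_LPS (-1.88 ± 0.27, adjusted p = 0.0601). The spectrin gene Sptbn1 was at 1.40, 1.61 and 3.2 FPKM in KO_LPS and 8.10, 8.41 and 9.02 FPKM in WT_LPS. Aqp1, a water channel, had the largest difference of the set, at 1.21, 1.56 and 1.42 FPKM in KO_LPS and 5.26, 16.3 and 10.5 FPKM in WT_LPS (-2.17 ± 0.34, adjusted p = 0.0859). Gldc, the glycine decarboxylase of the glycine cleavage system, was nearly absent at 0.10, 0.13 and 0.07 FPKM in KO_LPS and stood at 2.96, 3.49 and 1.52 FPKM in WT_LPS and 4.22 and 8.88 FPKM in WT_PBS. The others were Dpep2, Tppp3, Gstm7, Tmprss3, Emid1, Ubash3a and Zfp770, with log2 differences from -1.83 to -0.89.

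Of the next 12 genes higher in KO_LPS, 7 are interferon-induced (Batf2, Gbp9, Gbp6, Gbp4, Cxcl10, Ly6a and Ifi27l2a). The other 5 were Bmpr1a, Trip6, St3gal6, H4c12 and Ccl12. The 5 interferon lists without MHC class II hold 78 of the 12013 genes tested, and Ifi27l2a is in none of them. Because those lists were made with earlier results known, nothing is read from the count of 7. Bmpr1a, a receptor for bone morphogenetic proteins, was at 6.49, 11.4 and 6.27 FPKM in KO_LPS and 2.14, 2.20 and 2.04 FPKM in WT_LPS (1.49 ± 0.24, SE; limma, adjusted p = 0.0901). Trip6, a LIM-domain adaptor, was at 1.84, 1.13 and 0.83 FPKM in KO_LPS and listed at 0 in the 5 libraries with intact Aid. St3gal6, a sialyltransferase, was at 64.1, 58.9 and 51.1 FPKM in KO_LPS, 32.01, 33.8 and 34.9 FPKM in WT_LPS and 20.8 and 24.2 FPKM in WT_PBS. H4c12, a replication-dependent histone gene, and Ccl12, a monocyte-attracting chemokine, stayed below 3 FPKM in all libraries.

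Genes around AID and its lesions did not pass in any of 3 lists, against 0.0832% of all genes tested. At that share most lists of 14 to 20 genes would hold none, so nothing is read from the absence. For an unadjusted p under 0.05 (limma) the share of all genes was 5.67%. Among 17 tested genes of cytidine deamination, uracil excision and mismatch repair, limma called 0, and 0 reached an unadjusted p under 0.05, with a median difference of -0.20. Without KO_LPS replicates 1, 2 and 3 this median was -0.09, -0.06 and -0.38, without WT_LPS replicates 1 and 2 it was -0.35 and -0.10, and the term for library numbers 40 and above turned it to 0.10 with 14 of 17 above 0. Apobec1, a cytidine deaminase that edits RNA, was at 14.2, 21.6 and 10.4 FPKM in KO_LPS and 13.1, 8.08 and 8.83 FPKM in WT_LPS. Among 14 reported off-target loci of AID, 0 passed, 1 had an unadjusted p under 0.05 and the median was -0.05, or 0.03 with median-ratio scaling. That gene, Cdkn2a, a tumour suppressor locus, was at 331, 313 and 224 FPKM in KO_LPS and 228, 193 and 219 FPKM in WT_LPS, overlapping (0.42 ± 0.16, SE; adjusted p = 0.765). Among 20 genes of double-strand break repair and the checkpoint, 0 passed, 0 had an unadjusted p under 0.05 (limma) and the median was -0.24. That median depended on the libraries used: it was -0.48 without KO_LPS replicate 3, -0.39 without WT_LPS replicate 1, -0.16 and -0.06 without KO_LPS replicates 1 and 2, -0.10 without WT_LPS replicate 2, and 0.11 with 14 of 20 above 0 under a term for libraries numbered 40 and above. By library this median was -0.43, -0.47 and 0.27 in KO_LPS and -0.35, 0.18 and 0.15 in WT_LPS, so KO_LPS replicate 3 lay with WT_LPS replicates 2 and 3.

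B-lineage genes of the leukaemia had differences below 0 in 21 of 26 tested members, against 6942 of 12013 of all genes, with a median of -0.21 and 0 passing (limma; 7 with an unadjusted p under 0.05 lower and 1 higher, beside 3.11% of all genes lower at that level). Median-ratio scaling left 16 of 26 below 0 with a median of -0.14, and the median was -0.13 without KO_LPS replicate 1, -0.36 without KO_LPS replicate 3 and -0.345 without WT_LPS replicate 1. Ikzf3, encoding the Ikaros family factor Aiolos that rises as pre-B cells mature, was at 0.73, 1.10 and 2.12 FPKM in KO_LPS and 3.06, 7.68 and 7.34 FPKM in WT_LPS (-1.57 ± 0.35, SE; adjusted p = 0.307). Spib, an Ets factor, and Cd72, an inhibitory co-receptor, were at 2.75, 1.99 and 6.64 FPKM and 14.2, 12.9 and 22.6 FPKM in KO_LPS, and at 5.48, 9.69 and 11.6 FPKM and 24.99, 25.04 and 25.8 FPKM in WT_LPS. Tcf3, an E-protein of B-cell commitment, was at 141, 137 and 154 FPKM in KO_LPS and 194, 159 and 188 FPKM in WT_LPS. The surrogate light chain genes Igll1 and Vpreb1, which pair with the heavy chain in the pre-B cell receptor, were among the most abundant and overlapped. Igll1 was at 3188, 2693 and 1692 FPKM in KO_LPS and 2387, 1525 and 1913 FPKM in WT_LPS.

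No gene of oncogene signalling, p53 or the cell cycle passed, against 0.0832% of all genes tested. For an unadjusted p under 0.05 (limma) the share of all genes was 5.67%. Among 19 partners of BCR-ABL1 and targets of STAT5, 16 genes of p53 and its targets, 26 genes of DNA replication and 20 of mitosis, 0 passed, and the only gene with an unadjusted p under 0.05 (limma) was Cdkn2a. Their medians were 0.05, 0.12, -0.06 and 0.12, and the first 3 changed sign in at least 1 alternative. The median of BCR-ABL1 partners and STAT5 targets was -0.0091 without KO_LPS replicate 2. The p53 median was -0.12 without KO_LPS replicate 2, -0.04 without WT_LPS replicate 2, 0.33 without KO_LPS replicate 3, 0.29 without WT_LPS replicate 1 and -0.17 with 3 of 16 above 0 under the term for library numbers. The replication median was -0.20 without KO_LPS replicate 3 and 0.014 with median-ratio scaling, and the mitosis median ran from 0.04 without KO_LPS replicate 2 to 0.22 without KO_LPS replicate 1. Trp53 overlapped widely, at 23.4, 20.7 and 81.6 FPKM in KO_LPS and 35.7, 116 and 70.9 FPKM in WT_LPS. Mki67, a proliferation marker, was at 53.9, 73.9 and 67.1 FPKM in KO_LPS and 54.8, 51.7 and 52.4 FPKM in WT_LPS.

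No LPS response gene passed either, where 0.0832% of all genes tested passed. Of 21 NF-kB and LPS response genes 0 passed, with 2 lower at an unadjusted p under 0.05 (limma). Of all genes tested, 3.11% were lower at that level. Among 18 genes of the TLR4 complex the counts were 0 and 0. Il1b, encoding interleukin-1 beta, was at 7.81, 3.49 and 7.29 FPKM in KO_LPS and 36.9, 19.9 and 6.91 FPKM in WT_LPS, overlapping (-1.42 ± 0.52, SE; adjusted p = 0.765). In immediate early genes, limma called 0 of 17, and 3 had an unadjusted p under 0.05, each lower, beside the same 3.11% of all genes. Those 3 were lower in KO_LPS without overlap, where 4.27% of all genes tested were: Klf2 was at 18.2, 17.6 and 16.0 FPKM in KO_LPS and 27.3, 43.3 and 26.9 FPKM in WT_LPS, Nr4a1 at 10.3, 6.64 and 5.71 FPKM in KO_LPS and 23.6, 17.9 and 12.3 FPKM in WT_LPS, and Klf4 at 8.66, 9.65 and 10.7 FPKM in KO_LPS and 12.4, 16.9 and 15.5 FPKM in WT_LPS. Of 15 unfolded protein response genes 0 passed, and none had an unadjusted p under 0.05 in limma.

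Among 86 tested markers of other marrow cells, in 11 lists, limma called 0, where it called 0.0832% of all genes tested. Of the 86, 10 had an unadjusted p under 0.05 in limma, where 5.67% of all genes tested did. All 15 neutrophil markers lay below 0, with a median of -0.73 and 1 at an unadjusted p under 0.05, and none of the 15 was apart between groups. The median was -1.18 without KO_LPS replicate 3, and -0.32 with 3 of 15 above 0 without WT_LPS replicate 1. Of 14 tested monocyte and macrophage markers, 7 lay above 0, with a median of -0.03, and -0.12 to 0.05 with 1 library left out. The C1q genes were higher in KO_LPS with overlap, C1qb at 93.1, 76.3 and 24.1 FPKM in KO_LPS against 24.3, 21.9 and 17.5 FPKM in WT_LPS, whereas Csf1r, the receptor of the macrophage growth factor, was lower without overlap at 23.8, 18.4 and 23.7 FPKM in KO_LPS and 34.8, 41.1 and 29.9 FPKM in WT_LPS (-0.66 ± 0.16, SE; adjusted p = 0.456). Fcgr1, an interferon-gamma-inducible Fc receptor of macrophages, was higher at 2.18, 1.03 and 0.94 FPKM in KO_LPS and 0.52, 0.50 and 0.39 FPKM in WT_LPS. T-cell markers summed to 47.6, 49.7 and 51.5 FPKM in KO_LPS and 54.7, 62.5 and 65.5 FPKM in WT_LPS, but 5 of the 11 tested lay above 0 with a median of -0.08, Cd2 alone averaged 19.4 FPKM in KO_LPS and 26.1 FPKM in WT_LPS, and the WT_PBS sums were 51.0 and 54.3 FPKM. Megakaryocyte markers summed to 14.03, 18.6 and 14.7 FPKM in KO_LPS and 34.6, 21.01 and 21.8 FPKM in WT_LPS. Their part in the differences above was not tested. The 4 Y-linked genes, which mark male cells, summed to 52.1 to 59.2 FPKM in KO_LPS and 45.3 to 50.5 FPKM in WT_LPS.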

How the data were processed

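The deposited table gives FPKM per gene and library, rounded to 2 decimals, with 1 column per library, per the file headers. Total RNA went into a SMARTer mRNA-Seq kit, per the labels' protocols. GRCm38 and mm10, 2 names of 1 build, come from the submitters' processing notes, while an aligner is not given in the sources used here. FPKM does not correct for composition, so an abundant cell type lowers other genes. The authors' values carry no read counts, and whole reads were not recovered: the most frequent ratio of low values to KO_LPS replicate 1 was 0.871 or 1 in the other 7 libraries. The depth is thus unknown and counting intervals could not be computed.

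Rows were named from an NCBI RefSeq table of GRCm38.p6 (16798 of 18020 matched, and 1119 were unnamed loci). Rows whose mean over the 6 libraries reached 0.5 FPKM were fitted with limma 3.58.1 (R 4.3.3) on log2(FPKM + 1) with an intensity trend, as means of the 3 groups in 8 libraries. Fold changes on this scale understate low genes. P-values are two-sided and Benjamini-Hochberg adjusted over 12013 genes, threshold 0.05. Simulated data were used to test the script. With 3 against 3, an exact permutation test of a single gene cannot go below a two-sided p of 0.10, and none was run. Groups follow the genotype and treatment labels, and replicate numbers follow accession order and pair nothing.

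The genes named are those that passed, the next 12 in each direction by p whose groups do not overlap (without predicted genes, pseudogenes and antigen receptor segments), up to 3 per list by p, and any interferon list member. Some results under the rule are not reported here. Other members are named as neighbours, relatives or examples after their values were seen. The comparison, the 34 lists (490 of 501 symbols in the table) and the alternatives were chosen with earlier results of these data known, so counts over lists are descriptions. Alternatives were 21 fits: pseudocounts of 0.1 and 5, other filters, scalings and moderation, library weights, only 6 libraries, a term for libraries numbered 40 and above, and each library left out.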

Additional observations from a re-analysis of the deposited data

How the results depend on the processing

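The count of 10 genes depended on which libraries set the spread. It was 0 with only the 6 libraries and 0 with a term for libraries numbered 40 and above, which sets KO_LPS against WT_LPS replicate 1 alone, and 5 with no filter, 2 at a mean of at least 5 FPKM (579, 654, 1036 and 399 at an unadjusted p under 0.05, limma). It was 2715 with library weights, where WT_LPS replicate 3 had a weight of 10.1 and KO_LPS replicate 3 of 0.246. With 1 library left out it ranged from 0 to 162: 0 without KO_LPS replicate 1, WT_LPS replicate 2 or either WT_PBS replicate, 1 without KO_LPS replicate 2 or WT_LPS replicate 3, 3 without WT_LPS replicate 1, and 162 without KO_LPS replicate 3. In the other 8 alternatives it was 9 to 14. Without a WT_PBS replicate, the lone WT_PBS library adds nothing to the spread. The 10 genes kept their sign in all 21 alternatives in which they were tested, but none passed in all of them: of 21, Iigp1 passed in 13, Gbp2, Igtp and Tgtp2 in 10, Tceal9 in 11 and Cxcl9 in 8. Of the 20 that tested them, Tgtp1 passed in 12, Clec2e in 11 and Fbxw8 in 9, and the unnamed locus passed in 11 of 19.

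List medians near 0 also changed sign: the term for numbers 40 and above gave 0.26 for the unfolded protein response (-0.12 without it), and median-ratio scaling gave 0.02 for NF-kB and LPS response genes (-0.05 without it). Among genes that did not pass, Bex6, Cd34, Cdh5, Chac1, Gzma, Jchain, Mzb1, Nkg7, Pax5, Pdia4, Slamf1, Smug1, Socs3 and Uty changed sign in at least 1 alternative, and the cause was not tested. Their log2 differences were, with the term for numbers 40 and above, Bex6 0.11, Smug1 0.0094, Pdia4 0.15, Chac1 0.42, Nkg7 -0.25, Jchain -0.32, Mzb1 -0.15, Cd34 -0.13, Pax5 0.043, Uty 0.24. They were, with library weights, Socs3 0.32, Gzma -0.27, Cd34 -0.19. They were, with quantile normalization, Mzb1 -0.041. They were, with pseudocount 0.1, Cd34 -0.003. With 1 library left out, the ranges were Chac1 -1.04 to 0.20, Gzma -0.095 to 0.50, Nkg7 -0.022 to 0.36, Cdh5 -0.086 to 0.43, Mzb1 -0.074 to 0.081, Slamf1 -0.20 to 0.028, Cd34 -0.11 to 0.18.
No paired analysis was possible because the labels give the groups no shared replicate numbers.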
